A study of Mus musculus with 24 samples.

Results

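The 8 genes described here encode the 6 catalytic subunits of the trithorax-type H3K4 methyltransferase complexes (Kmt2a, Kmt2b, Kmt2c, Kmt2d, Setd1a and Setd1b) and both broadly expressed H3K27 demethylases (Kdm6a and Kdm6b). They were chosen by name, and each symbol matched a single row among the 20633 gene rows of the deposited table, so that 8 of 20633 rows are described. All 8 passed the filter of at least 10 reads in at least 3 libraries, with between 464 (Setd1b) and 8173 (Kmt2c) reads per library.

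Polycomb and trithorax proteins were first defined by opposite effects on the same developmental genes. PRC1 ubiquitylates histone H2A and PRC2 methylates H3K27 at silent CpG island promoters, whereas the KMT2 and SETD1 enzymes methylate H3K4 at promoters and enhancers, and KDM6A and KDM6B remove H3K27 methylation. KDM6A is itself a subunit of the KMT2C and KMT2D complexes. In ESCs, KMT2B is known for H3K4 methylation at promoters that also carry H3K27me3, and the SETD1A complex for H3K4 trimethylation at active promoters.

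The experiment used calibrated RNA-seq (cRNA-seq), in which Drosophila SG4 cells were added to a counted number of mouse ESCs so that expression could be scaled to cell number. Each line was sampled untreated and after 72 h of 800 nM 4-hydroxytamoxifen (OHT), in 3 replicates, giving 12 libraries with between 14668159 and 27016156 reads on genes. PRC1CKO cells are Ring1a-/-;Ring1b fl/fl with Rosa26::ERT2-Cre (clone B9), so that the untreated cells lack RING1A and OHT removes RING1B as well. PRC1CPM cells carry Ring1a I50A/D53K on both alleles, Ring1b(WT->I53A/D56K)fl/fl and Rosa26::ERT2-Cre (clone 41). OHT switches their Ring1b to the catalytically inactive form, so that the RING1A of the untreated cells is already mutant. Both lines derive from E14 ESCs, each is a single clone, and neither unedited cells nor OHT-treated cells without the floxed alleles were analysed here. The labels number the replicates without saying that they were separate cultures, so p-values measure the spread between these libraries.

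The targeted genes could not serve as a check of the labels, because reads were counted over the whole gene body while the edits remove or replace a few exons. Rnf2, which encodes RING1B, had 1526 ± 201 normalised reads in untreated and 1546 ± 50.8 in OHT-treated PRC1CKO cells, and 1696 ± 140 and 1511 ± 214 in PRC1CPM cells (mean ± SD, n = 3). Ring1, which encodes RING1A, had 227 ± 76.3 and 254 ± 26.4 in PRC1CKO cells and 162 ± 32.2 and 140 ± 25.8 in PRC1CPM cells. The ESC markers were well expressed, with 7 of 8 listed markers measured and a summed level between 37171 and 84310 normalised reads in the 12 libraries, Tdgf1 being the most abundant. Sox2 was the only one of the 7 called after OHT treatment, in PRC1CKO cells (log2 fold change -0.89). The primitive endoderm list summed to between 434 and 1235 in untreated and between 1120 and 2975 in OHT-treated libraries. Its members were called higher after OHT treatment in 4 of 6 cases in PRC1CKO and 6 of 6 in PRC1CPM cells, against 16.5% and 13.1% of all genes tested. Its most abundant gene after treatment was Gata6 in PRC1CKO and Dab2 in PRC1CPM cells. Of 4 trophoblast markers tested, 2 were called higher and 1 lower in PRC1CKO and 3 higher in PRC1CPM cells. Of all genes, 16.5% were called higher and 3.09% lower in PRC1CKO and 13.1% higher in PRC1CPM cells. The trophoblast sums ran between 1025 and 1945, mostly from Tfap2c, with Elf5 near 0. Of 5 neural markers, 2 were called higher and 1 lower in PRC1CKO and 2 higher in PRC1CPM cells, beside the same all-gene shares. The neural sums ran between 1464 and 3072, mostly from Map2. The fibroblast list summed to between 2031 and 5665 in PRC1CKO libraries and to 14463 and 14740 in replicate 1 of untreated and OHT-treated PRC1CPM cells, with 3692 to 6192 in their other replicates. Col1a1 made up most of it, while Lum and Dcn were near 0 in all conditions. Thy1 was the only fibroblast marker called after treatment, in PRC1CKO cells, and Col1a1 and Col1a2 were called higher in PRC1CPM cells after treatment and untreated, respectively. Between the lines, Gata6 was called lower in OHT-treated PRC1CPM cells (log2 difference -1.78), and Sox7 (-2.26) and the neural marker Sox1 (-1.40) in untreated ones. The part of other cell types in the values below was not tested, and in bulk RNA fewer cells of a type and less RNA per cell cannot be told apart.

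The 8 genes are spread over 6 chromosomes (mm10, coordinates from the deposited table). Kmt2a (NM_001081049) lies on the minus strand of chromosome 9 from 44803355 to 44881274, and Kmt2b (NM_001290573) on the minus strand of chromosome 7 from 30568855 to 30588726. Kmt2c (NM_001081383) spans 227 kb on the minus strand of chromosome 5, from 25271794 to 25498783, and Kmt2d (NM_001033276) lies on the minus strand of chromosome 15 from 98831669 to 98871205. Setd1a (NM_178029) and Setd1b (NM_001040398) lie on plus strands, on chromosome 7 from 127777389 to 127800119 and on chromosome 5 from 123142193 to 123168630. Kdm6a (NM_009483) is on the plus strand of chromosome X from 18162667 to 18279358, and Kdm6b (NM_001017426) on the minus strand of chromosome 11 from 69398518 to 69413675. These bodies differ in how much of them is exon, from 5.09% in Kdm6a and 7.41% in Kmt2c to 45.1% in Kdm6b and 50.1% in Kmt2d. No other row of the table overlaps them, but RefSeq places the lncRNA Gm39326 on the opposite strand over 33.8% of the Kmt2a body. The counting is not stated to use strand, so reads of Kmt2a and of this RNA may not be separated.

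RefSeq promoter sequences (GRCm38.p6) were at hand for 5 of the 8 genes, and not for Kmt2b, Setd1b and Kdm6b. In the 250 bases before the annotated start, the dinucleotide CG occurred 48 times in Kmt2c, 29 in Kmt2a, 26 in Kmt2d, 25 in Setd1a and 15 in Kdm6a, counted on 1 strand because CG reads the same on both. The median of 32851 mouse promoters was 6, and 92.1% held at least 1. Every one of the 5 was therefore above the median promoter, and 10.7% of all promoters held at least as many as Setd1a. The Setd1a window is printed because it is the only one of the 5 free of annotated exons and because it shows the CpG density of a gene whose level hardly differed between conditions (chr7:127777139-127777388, plus strand, CG in capitals).
Setd1a: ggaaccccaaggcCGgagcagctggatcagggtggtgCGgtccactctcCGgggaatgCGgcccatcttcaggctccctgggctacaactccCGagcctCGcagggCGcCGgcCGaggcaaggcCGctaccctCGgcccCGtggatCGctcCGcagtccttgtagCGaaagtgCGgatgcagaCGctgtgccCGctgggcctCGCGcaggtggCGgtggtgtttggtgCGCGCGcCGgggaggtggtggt

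All 8 genes were expressed in every library. In untreated PRC1CKO cells, Kmt2b had the highest level per kb of gene body (252 ± 46.4 normalised reads per kb, mean ± SD, n = 3), against a median of 19.6 for all genes tested. Setd1a (131 ± 18.9), Kdm6b (129 ± 21.6) and Kmt2d (119 ± 12.1) followed, and their libraries overlapped. Kmt2a stood alone at 80.6 ± 10.8, below all libraries of these genes. Kdm6a (34.0 ± 5.94), Kmt2c (30.9 ± 4.72) and Setd1b (28.8 ± 5.76) formed the lowest level, with overlapping libraries. Kmt2b was at the 95.9th percentile of genes tested and Setd1b at the 58.7th. The order of the means differed among the close neighbours in the other conditions, while Kmt2b was highest and Kmt2a next below Kdm6b, Kmt2d and Setd1a in all 4. Because introns count in these lengths, the order depends on them. The same gene-body reads were also divided by exon length, for the 7 genes with a matching RefSeq transcript. In untreated PRC1CKO cells, Kdm6a (668) and Kmt2b (590) then had the highest means per kb and Setd1b (86.1) the lowest. Reads on introns stay in these values, so they are not levels of exon reads.

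**Figure D1:**
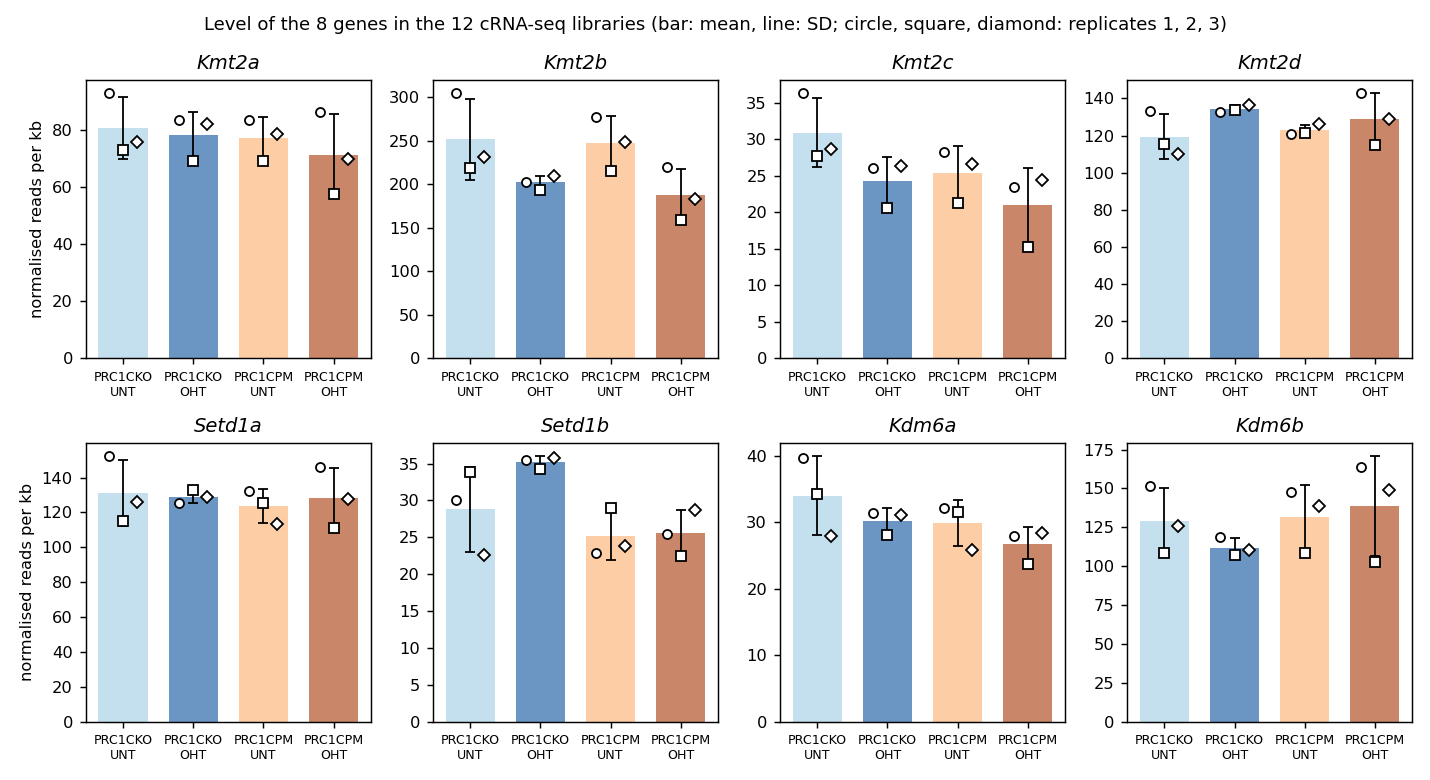
Normalised reads per kb of gene body (y axis, from 0) for each gene in the 4 conditions (x axis), with bars for the mean, lines for the SD and a symbol for each of 3 replicates. Kmt2b reached 252 per kb in untreated PRC1CKO cells and 202 after OHT treatment, and the untreated replicate 1 of PRC1CKO was the highest of its group for 7 of the 8 genes.

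The first question was whether loss of PRC1 changes the expression of these genes. In PRC1CKO cells, 0 of 8 members were called after OHT treatment, at an adjusted p under 0.05 and a change above 1.5-fold (limma, Benjamini-Hochberg adjustment over 16940 genes), where 19.5% of all genes tested were called. Of all genes, 2787 were called higher and 524 lower, or 2845 and 1133 when the libraries were scaled by TMM in place of the spike-in. At an unadjusted p under 0.05 the count among the members was also 0, against 28.1% of all genes, and DESeq2 and edgeR called 0 of 8. The 95% interval lay within a 1.5-fold change either way for 4 of 8 members, Kmt2a, Kmt2d, Setd1a and Kdm6a, against 18.5% of all genes. For the other 4, the interval reached past 1.5-fold. The libraries of treated and untreated cells did not overlap for 3 of 8 members, against 30.6% of all genes. The median log2 fold change of the members was -0.098, beside 0.12 over all genes tested. With TMM the median over all genes was -0.0019 in PRC1CKO and -0.0072 in PRC1CPM cells, so that members shift down with it, and Kmt2b, Kmt2c and Kdm6b had adjusted p of 0.00065, 0.0044 and 0.020 (limma) in PRC1CKO cells at changes below 1.5-fold. At an unadjusted p under 0.05 with TMM, the PRC1CKO count was 4 of 8 members, against 7942 of the 16940 genes.

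The MLL1/MLL2 branch comprises Kmt2a and Kmt2b, which methylate H3K4 with menin as a cofactor. Kmt2b had 6064, 4358 and 4604 normalised reads in untreated PRC1CKO cells and 4041, 3856 and 4161 after OHT treatment. All treated libraries were below all untreated ones, a pattern that 8.52% of all genes showed in this direction. The log2 fold change was -0.30 (95% interval -0.71 to 0.10, adjusted p = 0.363 with limma). In PRC1CPM cells the values were 5511, 4276 and 4955 before and 4369, 3165 and 3649 after treatment. These groups overlapped, since the highest treated library exceeded the lowest untreated one, although each treated library was below the untreated one of its replicate number. The log2 fold change there was -0.40 (-0.81 to 0.00061, adjusted p = 0.220 with limma). That was the lowest adjusted p of the members in either line in the main fit (limma, spike-in scale, all libraries, no replicate block). With the replicate number as a block the adjusted p was 0.0087 (limma), at a change below 1.5-fold. The log2 fold change depended on the scale, being -0.51 with TMM (adjusted p = 0.00024 with limma, below 1.5-fold) and -0.10 when the gDNA correction of the spike-in was left out (0.784).

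Kmt2a, the founding mammalian trithorax homologue, had 7244, 5697 and 5911 normalised reads in untreated PRC1CKO cells and 6501, 5380 and 6408 after OHT treatment. In PRC1CPM cells it had 6512, 5390 and 6122 before and 6727, 4489 and 5435 after treatment. The groups overlapped in both lines. Its log2 fold changes were -0.041 (-0.44 to 0.36) and -0.13 (-0.53 to 0.27), both intervals within 1.5-fold, and the latter became 0.17 when the gDNA correction was left out.

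The MLL3/MLL4 branch, Kmt2c and Kmt2d, monomethylates H3K4 at enhancers together with KDM6A. Kmt2c had 8246, 6290 and 6510 normalised reads in untreated PRC1CKO cells and 5906, 4679 and 5968 after OHT treatment, without overlap. The log2 fold change was -0.34 (-0.76 to 0.070, adjusted p = 0.294 with limma), the largest in size among the 8 in this line when all libraries were kept. Without untreated replicate 2 it was -0.42, beside 0.43 for Setd1b. A replicate block with all libraries kept gave an interval of -0.60 to -0.088 and an adjusted p of 0.025 (limma), below 1.5-fold. In PRC1CPM cells, Kmt2c had 6422, 4813 and 6046 before and 5330, 3455 and 5545 after treatment. These overlapped, although each treated library was below the untreated one of its replicate number. The log2 fold change was -0.29 (-0.71 to 0.12, adjusted p = 0.482 with limma). It was -0.40 (0.016) with TMM, below 1.5-fold, and 0.0091 (0.981) when the gDNA correction was left out. With 1 library left out it ranged from -0.41 to -0.073, the latter without treated replicate 2.

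Kmt2d, the other enhancer methyltransferase, had 5258, 4556 and 4349 normalised reads in untreated and 5246, 5295 and 5406 in OHT-treated PRC1CKO cells. In PRC1CPM cells it had 4784, 4800 and 4998 before and 5652, 4538 and 5091 after treatment. The groups overlapped in both lines. The log2 fold changes were 0.18 (-0.21 to 0.56) in PRC1CKO and 0.062 (-0.32 to 0.45) in PRC1CPM cells, within 1.5-fold in both, the latter becoming -0.045 with TMM.

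The SET1 branch, Setd1a and Setd1b, works with CFP1 (Cxxc1), which binds unmethylated CpG. Setd1a, whose promoter is printed above, had 3459, 2620 and 2869 normalised reads in untreated and 2846, 3019 and 2935 in OHT-treated PRC1CKO cells. In PRC1CPM cells it had 3012, 2856 and 2574 before and 3315, 2520 and 2902 after treatment. The libraries overlapped throughout. The log2 fold changes of -0.015 (-0.42 to 0.39) and 0.043 (-0.36 to 0.45) were the smallest of the 8 in size on the spike-in scale, averaged over both lines. The latter became -0.064 with TMM. Relative to the all-gene median, Setd1a had -0.13 and -0.056, larger in size than Kmt2d with 0.061 and -0.038.

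Setd1b, the least expressed member by read count, had 794, 897 and 597 normalised reads in untreated PRC1CKO cells and 937, 905 and 946 after OHT treatment. The treated libraries were above all untreated ones, narrowly so for the untreated replicate 2, as for 22.1% of all genes. The log2 fold change was 0.31 (-0.16 to 0.77, adjusted p = 0.447 with limma). In PRC1CPM cells it had 603, 765 and 629 before and 672, 595 and 759 after treatment, which overlapped, with a log2 fold change of 0.021 (-0.44 to 0.49), or -0.086 with TMM. The difference between these effects, tested as the interaction of line and treatment, was -0.28 (-0.94 to 0.37, adjusted p = 0.999945 with limma), and turned to 0.16 when the gDNA correction was left out.

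Of the demethylases, Kdm6a is X-linked and has a role in the enhancer complexes beyond its catalytic one. It had 4639, 4007 and 3253 normalised reads in untreated and 3673, 3277 and 3638 in OHT-treated PRC1CKO cells. In PRC1CPM cells it had 3751, 3678 and 3023 before and 3269, 2766 and 3317 after treatment. The groups overlapped in both lines, and the log2 fold change was -0.16 in each (-0.56 to 0.25 in both), the PRC1CPM value becoming 0.14 when the gDNA correction was left out.

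Kdm6b, an inducible demethylase in many tissues, had 2297, 1647 and 1911 normalised reads in untreated and 1798, 1623 and 1671 in OHT-treated PRC1CKO cells. In PRC1CPM cells it had 2240, 1644 and 2101 before and 2487, 1556 and 2260 after treatment. Both comparisons overlapped, and replicate 2 was the lowest library in all 4 conditions. The log2 fold changes were -0.19 (-0.63 to 0.25) in PRC1CKO and 0.059 (-0.38 to 0.50) in PRC1CPM cells, the latter becoming -0.048 with TMM.

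**Figure D2:**
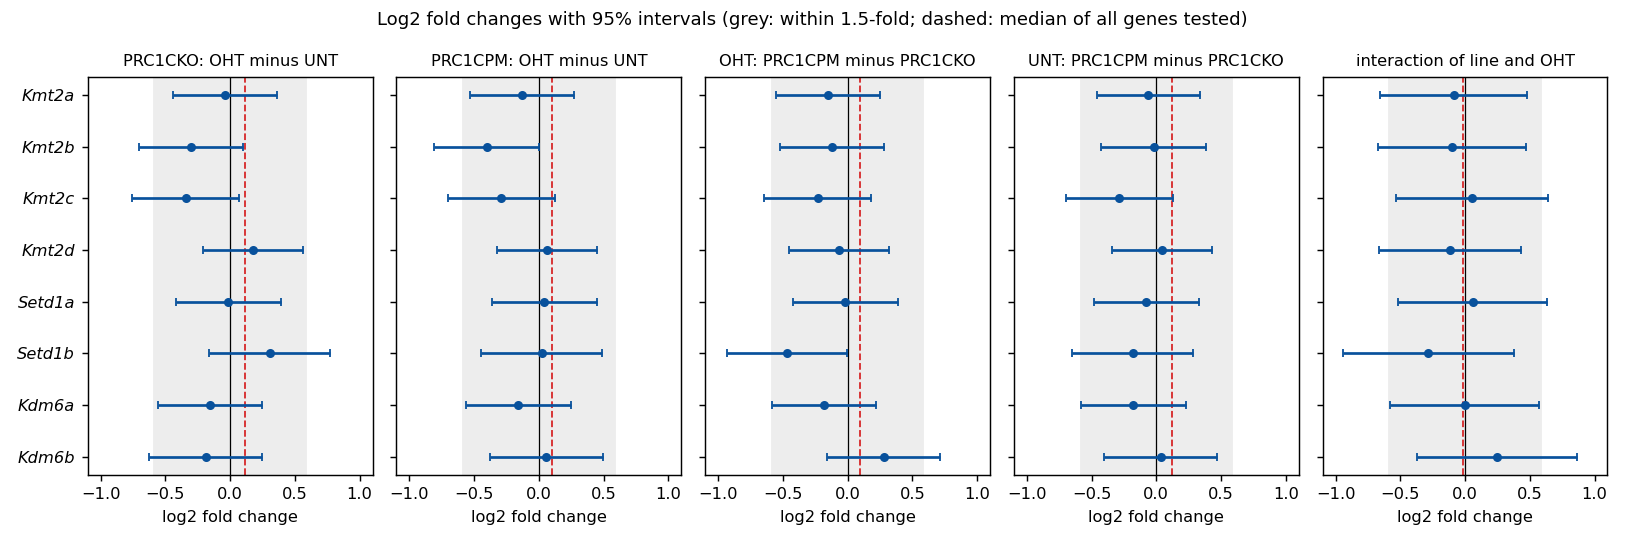
Log2 fold changes (x axis) of the 8 genes (y axis) in 5 comparisons, with points for the estimate and bars for the 95% interval, the grey band marking changes within 1.5-fold and the dashed line the median of all genes tested. None of the points lies outside the band, the farthest from 0 being -0.47 for Setd1b between the OHT-treated lines.

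The second question was whether loss of catalysis alone, with PRC1 still assembled, changes these genes. In PRC1CPM cells, 0 of 8 members were called after OHT treatment, against 14.5% of all genes tested (2226 higher and 237 lower, or 2396 and 595 with TMM, while leaving out the gDNA correction gave 3628 and 75). The members with an unadjusted p under 0.05 numbered 0 with limma and edgeR and 1 with DESeq2, against 22.9% of all genes with limma. With TMM they numbered 4, against 6814 of the 16940 genes, and of the 4 Kmt2b and Kmt2c also passed the adjusted p. The groups did not overlap for 0 of 8, against 22.4% of all genes. The 95% interval lay within 1.5-fold for 6 of 8 members, the exceptions being Kmt2b and Kmt2c, against 22.5% of all genes. The members had a median log2 fold change of -0.054, beside 0.10 over all genes, and all 8 were below that all-gene median, as were 6 of 8 in PRC1CKO cells.

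The lines were then compared directly. Between the OHT-treated lines, 0 of 8 members were called, against 1.47% of all genes (212 higher and 37 lower in PRC1CPM). The all-gene counts were 524 and 261 with TMM, 1131 and 232 with the replicate number as a block, and 501 and 23 without the gDNA correction of the spike-in. With limma on the spike-in scale and no block, Setd1b was the only member with an unadjusted p under 0.05, against 11% of all genes. Its treated PRC1CPM libraries (672, 595 and 759 normalised reads) were all below the treated PRC1CKO ones (937, 905 and 946). With TMM, 5 of 8 members had an unadjusted p under 0.05, against 4140 of the 16940 genes, and 0 an adjusted one. The Setd1b pattern was shown by 4.35% of all genes, and the log2 difference was -0.47 (-0.93 to -0.0010, adjusted p = 0.452 with limma). A replicate block gave Setd1b an interval of -0.75 to -0.18 and an adjusted p of 0.014 (limma), at a change below 1.5-fold. The other 7 members overlapped between the OHT-treated lines, where 16.3% of all genes, in either direction, did not.

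Between the untreated lines, 0 of 8 members were called, against 2.69% of all genes (374 higher and 81 lower). The all-gene counts were 745 and 305 with TMM, 1631 and 253 with the replicate number as a block, and 143 and 165 without the gDNA correction. The libraries of all 8 members overlapped, where those of 11.8% of all genes did not. At an unadjusted p under 0.05 the count was 0 of 8, against 14.1% of all genes. With TMM it was 2 of 8, against 4511 of the 16940 genes, and Kmt2c also passed the adjusted p (0.032 with limma, log2 difference -0.40). The intervals of 6 members lay within 1.5-fold, against 24.6% of all genes, and of 4 between the OHT-treated lines, against 25%. The largest difference in size was -0.28 (-0.70 to 0.13) for Kmt2c. Kdm6b lies on chromosome 11, whose 1380 tested genes had a median log2 difference between the lines of 0.45 untreated and 0.42 after OHT treatment, beside 0.12 and 0.097 over all genes. Its own differences were 0.033 and 0.28, which are -0.42 and -0.14 relative to its chromosome. The part of this chromosome-wide difference in the Kdm6b values was not tested.

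The interaction of line and treatment asks whether OHT changed a gene differently in the 2 lines. It was called for 0 of 8 members, against 0.0236% of all genes (4 lower and 0 higher, or 1 lower and 3 higher without the gDNA correction). This background depends on the model, since 246 genes were called lower and 78 higher with the replicate number as a block, 0 of them members. The estimates ran from -0.28 for Setd1b to 0.25 for Kdm6b, with standard errors between 0.27 and 0.33. Only the interval of Kdm6a (-0.58 to 0.57) lay within 1.5-fold, against 0.567% of all genes.

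**Figure D3:**
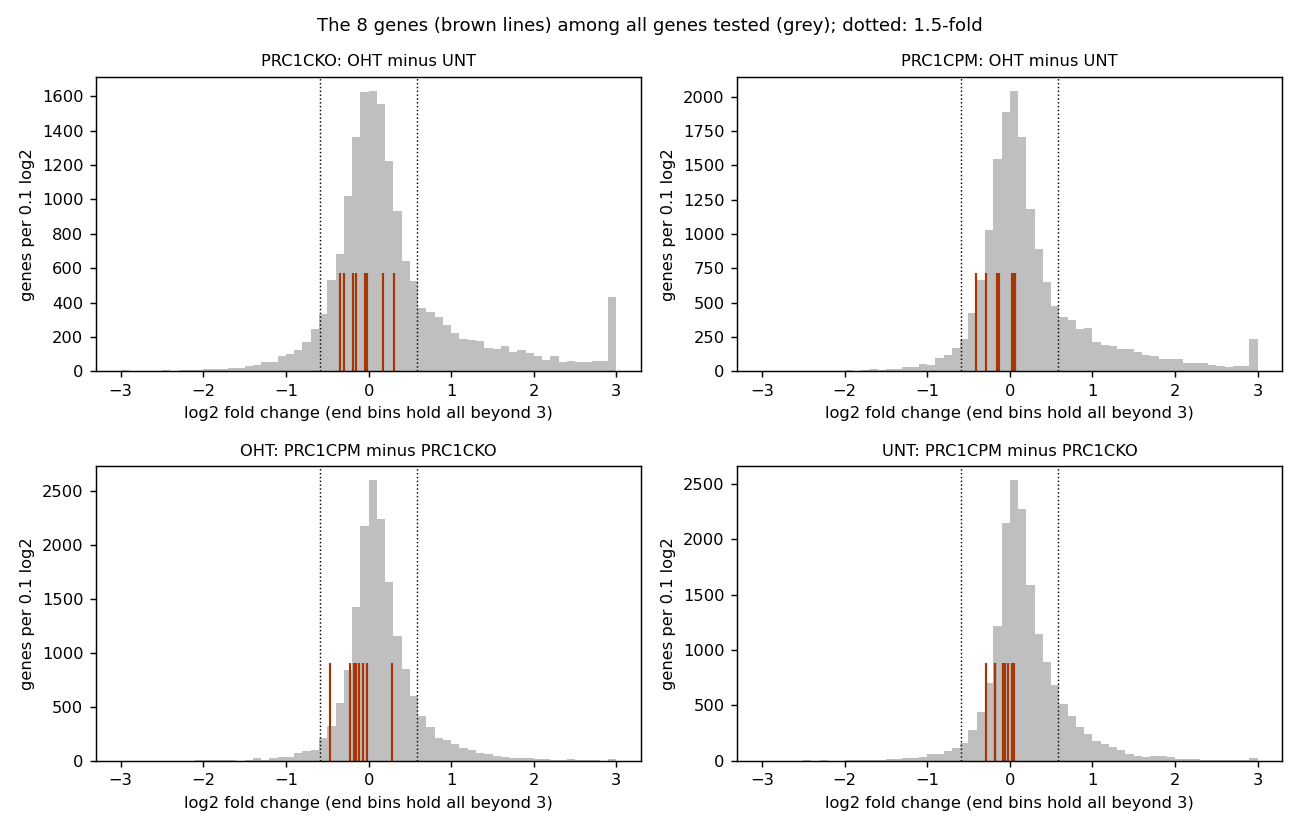
Number of genes (y axis) per 0.1 of log2 fold change (x axis, end bins holding all beyond 3) for the 16940 genes tested in 4 comparisons, with brown lines at the 8 genes and dotted lines at 1.5-fold. The members lie inside the dotted lines in all 4 panels, from -0.34 to 0.31 in PRC1CKO and from -0.40 to 0.062 in PRC1CPM cells.

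The enzymes act with partner proteins, and 48 partner and related genes in 10 lists were examined beside them, all of which passed the filter. After OHT treatment, 2 were called higher and 3 lower in PRC1CKO cells, and 2 higher and 0 lower in PRC1CPM cells, against 16.5% higher and 3.09% lower, and 13.1% and 1.4%, of all genes. Their median log2 fold changes were -0.0078 and 0.00057. None was called in the interaction.

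The core subunits shared by all 6 methyltransferase complexes (Wdr5, Rbbp5, Ash2l and Dpy30) had 0 of 4 called in any comparison. Their treatment values ran from -0.43 for Ash2l in PRC1CPM to 0.14 for Wdr5 in PRC1CKO cells, the latter becoming -0.011 without the gDNA correction of the spike-in. Of 4 MLL1/MLL2 cofactors, Psip1, which encodes the chromatin tether LEDGF, fell in PRC1CKO cells, from 4653 ± 1093 to 3018 ± 125 normalised reads (log2 fold change -0.60 ± 0.20 SE, adjusted p = 0.0287 with limma), and the highest value was 0.44 for Men1, which was called only when untreated replicate 1 was left out (0.65). The Psip1 call was lost without the mean-variance trend, without untreated PRC1CKO replicate 1 and without any 1 of the 3 treated libraries, with log2 fold changes down to -0.42.

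Of 4 SET1 cofactors, Wdr82, which links the SET1 complexes to RNA polymerase II, fell in PRC1CKO cells from 3854 ± 613 to 2479 ± 90.5 normalised reads (log2 fold change -0.63 ± 0.20 SE, adjusted p = 0.0218 with limma), and the highest value was 0.22 for Bod1 in PRC1CPM cells. The Wdr82 call was lost under the same settings, with log2 fold changes down to -0.50. In PRC1CPM cells, Psip1 and Wdr82 had log2 fold changes of -0.23 (adjusted p = 0.630 with limma) and -0.38 (0.266), and the difference between the lines was not called for either. The 3 MLL3/MLL4 cofactors had 0 called, with values from -0.22 for Pagr1a to 0.11 for Paxip1 in PRC1CKO cells, the latter becoming -0.0097 with TMM.

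Among 7 other trithorax-group and H3K4 methyltransferase genes, Smyd1, a muscle methyltransferase, rose in both lines. It went from 60.1 ± 10.5 to 162 ± 49.8 normalised reads in PRC1CKO (log2 fold change 1.39 ± 0.32 SE, adjusted p = 0.000744 with limma) and from 93.1 ± 18.9 to 213 ± 27.2 in PRC1CPM cells (1.19 ± 0.32, 0.00574). The lowest value of this list was -0.45 for Kmt2e in PRC1CKO cells.

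Among 12 BAF remodelling genes, Smarca2, the alternative ATPase to Smarca4, rose from 97.6 ± 49.1 to 405 ± 59.7 normalised reads in PRC1CKO (2.14 ± 0.31, adjusted p = 2.7e-07 with limma) and from 100.4 ± 12.3 to 324 ± 109 in PRC1CPM cells (1.64 ± 0.31, 8.4e-05). Smarca4 itself had log2 fold changes of -0.13 in both lines and was not called, and the lowest value was -0.52 for Smarcd1 in PRC1CKO cells, which was called lower with TMM (-0.64).

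Of the 4 H3K27 demethylase relatives, Kdm7a, a demethylase of H3K9 and H3K27, fell in PRC1CKO cells from 2628 ± 676 to 1565 ± 162 normalised reads (-0.72 ± 0.22 SE, adjusted p = 0.0124 with limma). This call was lost without untreated replicate 1 (-0.52) or treated replicate 2 (-0.64), without the mean-variance trend and without a filter on low counts. Phf2 had the highest value, 0.47, and was called only when untreated replicate 1 was left out (0.66). Of the 6 H3K4 demethylases, 0 were called after treatment, and Kdm5b had the lowest value, -0.55 in PRC1CKO cells, with an adjusted p of 0.0328 (limma) but a change below 1.5-fold. The call depended on the scale, since Kdm5b was called lower with TMM (-0.67, adjusted p = 0.00057 with limma) and when the gDNA correction was left out (-0.70, 0.039). Kdm1b had the highest, 0.30. The H3K27 acetyltransferases Ep300 and Crebbp and the PRC2 methyltransferases Ezh1 and Ezh2, which place the mark that the KDM6 enzymes remove, had 0 of 4 called, with values from -0.43 for Ezh1 in PRC1CKO to 0.19 for Crebbp in PRC1CPM cells. Ep300 had a lowest value of -0.21 and Ezh2 a highest of 0.036 in PRC1CKO cells, the latter becoming -0.083 with TMM.

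**Figure D4:**
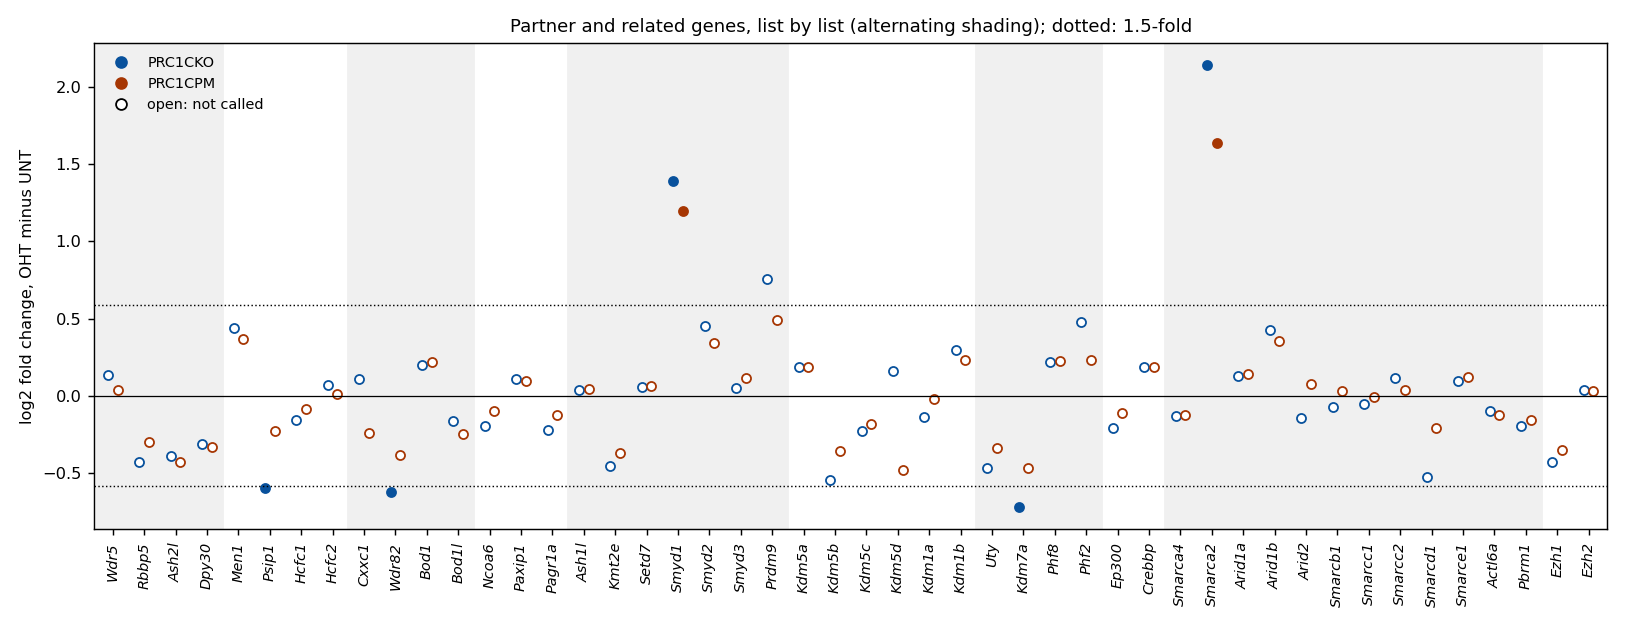
Log2 fold change after OHT treatment (y axis) of 48 partner and related genes (x axis, lists in alternating shading), blue for PRC1CKO and brown for PRC1CPM cells, filled where called and with dotted lines at 1.5-fold. Smarca2 and Smyd1 are filled above the line in both lines, and Psip1, Wdr82 and Kdm7a below it in PRC1CKO cells alone, a difference between lines that did not pass the interaction test.

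Between the lines, both Y-linked relatives of the listed demethylases differed. Uty, the Y homologue of Kdm6a, had 183 ± 29.4 and 136 ± 48.4 normalised reads in untreated and OHT-treated PRC1CKO cells, against 1867 ± 119 and 1472 ± 47.5 in PRC1CPM cells (log2 differences 3.35 and 3.48 ± 0.25 SE, adjusted p = 5.4e-14 and 1.2e-14 with limma). Kdm5d had 2 to 14 reads per PRC1CKO library and 108 to 186 per PRC1CPM library, with log2 differences of 5.02 untreated and 4.38 after treatment (adjusted p = 7.8e-11 and 6.7e-09 with limma). The 5 tested genes of chromosome Y had a median log2 difference of 2.93 untreated and 3.11 after OHT treatment. Relative to that median, to which both genes contribute, Uty differed by 0.42 and 0.36 and Kdm5d by 2.09 and 1.26. Uty was then no longer called in either condition, while Kdm5d still was. Kdm6a, the X-linked homologue of Uty, differed by -0.18 in both conditions and was not called. The Y genes and their X homologues are similar in sequence, and how reads shared by both were treated beyond the requirement of unique alignment was not examined. With limma on the spike-in scale and no replicate block, no other gene of the 48 was called between the lines. Thus 2 were called higher and 0 lower in PRC1CPM cells in each condition, against 1.25% and 0.218% of all genes after OHT treatment and 2.21% and 0.478% untreated.

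The genes most like a member across the 12 libraries were found by Pearson correlation of log2(normalised read count + 1) among 12969 genes with a mean of at least 100. For Kmt2b, which had the largest average change in size over both lines (0.35), they were Ddx17 (r = 0.98), March6 (0.98) and Cyp2j13 (0.98), where the median gene had r = 0.36. For Setd1a, with the smallest on the spike-in scale (0.029), they were Hspbp1 (0.98), Rpp30 (0.96) and Ythdc1 (0.95), against a median of 0.54. The 12 points share, within a library, its depth and its spike-in scale factor.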

How the data were processed

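RNA from 12 mouse ESC libraries was examined. The gDNA libraries of the same 12 samples, which the authors used for calibration, were not analysed here. Per the study's methods, the authors discarded rDNA reads with Bowtie 2, aligned the rest to mm10 and dm6 with STAR and then Bowtie 2, kept unique reads, removed duplicates and divided gene-body reads by DESeq2 size factors from Drosophila genes, corrected with gDNA-seq. The deposited signal is thus a normalised read count and not a count of reads. Multiplying by 1 factor per library returned whole reads for 100% of values (within 0.02 reads), and total reads on genes ran from 14668159 to 27016156, which sets the precision of low genes.

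limma 3.58.1 (R 4.3.3) was fitted to log2(normalised read count + 1) with 4 condition means and a mean-variance trend, over the 16940 genes that reached 10 reads in 3 or more libraries. Fold changes are on that scale, which understates changes of low genes. Calls required p below 0.05 after Benjamini-Hochberg adjustment together with a change above 1.5-fold (for the interaction, the adjusted p alone). Count models were planned only as alternatives, on the recovered reads: edgeR 4.0.16 and DESeq2 1.42.0. Alternatives also changed the scale, including spike-in totals from the study's list of libraries without the gDNA correction. The fit was also run on simulated data, but no result of that run is used here. Named genes were the 8 members, the targeted genes, and, of each of 10 partner lists, those called and the lowest and highest treatment values. The members and lists were chosen with earlier results of these data known. Table starts count from 0 and are given from 1. The authors' own fold changes and p-values in the same table, and a deposited list of genes they classed as partially derepressed, were not used.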

Additional observations from a re-analysis of the deposited data

How the results depend on the processing

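The count of members called was 0 of 8 in all 5 comparisons under every alternative run, including each of 12 libraries left out. Of 1032 values of single members under alternatives, 942 kept their direction and 90 changed sign, and none was called. Many of the values could not change sign. The replicate block on the spike-in scale and the fits without a filter or a mean-variance trend return the main estimate. So do a fit to each line alone and the omission of a library from a condition outside the comparison. The alternative of other rows of the same symbol gave no value, since each member has 1 row.

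The replicate numbers of the labels were checked by correlating deviations from the condition means. Over all 16940 genes tested, 17 of 18 same-number pairs exceeded 0.1 (lowest 0.099). Over 12970 genes with a mean of at least 100 it was 18 of 18 (lowest 0.11), so the count above 0.1 depended on the filter. Different-number pairs reached at most 0.028 over all genes and 0.15 over the 12970. Both sets of correlations were computed after calls had been seen. Every library correlated best with its own number in 36 of 36 checks, so libraries of 1 number share more than the label. What they share is not stated. The p-values, intervals and all-gene shares above come from fits without a replicate block unless a block is named. With the replicate block the genes called were 1363 between treated lines, 1884 between untreated lines and 324 in the interaction. Kmt2c in PRC1CKO (adjusted p = 0.025), Kmt2b in PRC1CPM (0.0087) and Setd1b between treated lines (0.014, all limma) then passed the adjusted p but not 1.5-fold. Kmt2b and Kmt2c were lower after treatment in all 3 same-number pairs of either line. In PRC1CKO cells Kdm6b was also lower in all 3, and Setd1b was higher in all 3. With the block, intervals within 1.5-fold numbered 6 of 8 for PRC1CKO, 7 for PRC1CPM, 7 between treated lines, 8 between untreated lines and 6 for the interaction, in place of 4, 6, 4, 6 and 1. With the block and TMM, members passing the adjusted p alone numbered 4, 4, 5, 2 and 0 in that order. At an unadjusted p under 0.05 the members then numbered 5, 4, 7, 5 and 1, against 9208, 8175, 5553, 5960 and 2228 of the 16940 genes. No all-gene share is given for the same-number pairs, the intervals with the block or the adjusted p alone. Those member counts therefore have no background to be judged against. Among the partner genes the block added calls for Prdm9 in PRC1CKO (0.76, adjusted p = 0.00082), Kdm7a between treated lines (0.64, 4.0e-05) and Smyd1 between untreated lines (0.62, 0.040), and for the targeted gene Ring1 between treated lines (-0.86, 0.00039). Among the markers it added Sox7, Cdx2 and Col3a1 in PRC1CKO, Col1a2 in PRC1CPM, Gata4, Cdx2, Col1a2 and Pax6 between treated lines, Gata6, Cdx2, Tfap2c, Hand1 and Col1a1 between untreated lines, and Tfap2c and Pax6 in the interaction. It ended no call of these lists. Kdm7a and Smyd1 lie on chromosome 6, whose 852 tested genes had a median log2 difference between the lines of 0.30 treated and 0.31 untreated. The part of this chromosome-wide difference in their values was not tested. With edgeR and the block, an alternative chosen after seeing the data, the counts were 1479, 1747 and 343, and with the block and TMM 1151, 1470 and 254.

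Of the genes called, 249 between treated lines became 429 with DESeq2, 785 with TMM, 774 with median-of-ratios factors, 73 without a filter and 524 without the gDNA correction, which also gave 3703 in place of 2463 for PRC1CPM treatment. The 455 between untreated lines became 1050 with TMM, 1046 with median-of-ratios factors and 132 without a filter. The 4 of the interaction became 15 with DESeq2, 14 with TMM, 13 with median-of-ratios factors, 1 with a pseudocount of 0.1 and 0 without the mean-variance trend, where the member count was also 0. Leaving out 1 library gave 116 (without treated PRC1CKO replicate 2) to 477 between treated lines, 244 to 1570 between untreated lines and 1 to 28 for the interaction, each highest without untreated PRC1CKO replicate 1. That replicate also raised PRC1CKO treatment calls to 4055 when left out, the range being 2416 to 4055, and 1707 to 2854 for PRC1CPM. The cause was not tested.

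With DESeq2 the reversed values were Kdm6a 0.0071 for the interaction. With TMM the reversed values were Ezh2 -0.083, Paxip1 -0.0097 in PRC1CKO after treatment, Kdm6a 0.0087 for the interaction, Kdm6b -0.048, Kmt2d -0.045, Setd1a -0.064, Setd1b -0.086 in PRC1CPM after treatment, and Kdm6b -0.082, Kmt2d -0.068 between untreated lines. With edgeR the reversed values were Kdm6a 0.0073 for the interaction. With edgeR and the replicate block the reversed values were Kdm6a 0.0012 for the interaction. With median-of-ratios factors the reversed values were Ezh2 -0.090, Paxip1 -0.016 in PRC1CKO after treatment, Kdm6a 0.0088 for the interaction, Kdm6b -0.055, Kmt2d -0.052, Setd1a -0.071, Setd1b -0.092 in PRC1CPM after treatment, and Kdm6b -0.082, Kmt2d -0.068 between untreated lines. Relative to the all-gene median the reversed values were Ezh2 -0.079, Paxip1 -0.0056 in PRC1CKO after treatment, Kdm6a 0.015 for the interaction, Kdm6b -0.041, Kmt2d -0.038, Setd1a -0.056, Setd1b -0.078 in PRC1CPM after treatment, and Kdm6b -0.087, Kmt2d -0.073 between untreated lines. Relative to the chromosome median the reversed values were Kdm6b -0.14 between treated lines, and Kdm6b -0.42, Kmt2d -0.063 between untreated lines. With the replicate block and TMM the reversed values were Ezh2 -0.083, Paxip1 -0.0097 in PRC1CKO after treatment, Kdm6a 0.0087 for the interaction, Kdm6b -0.048, Kmt2d -0.045, Setd1a -0.064, Setd1b -0.086 in PRC1CPM after treatment, and Kdm6b -0.082, Kmt2d -0.068 between untreated lines. Without the gDNA correction the reversed values were Ezh2 -0.11, Paxip1 -0.037, Wdr5 -0.011 in PRC1CKO after treatment, Kdm6a 0.14, Kmt2a 0.17, Kmt2c 0.0091 in PRC1CPM after treatment, Kdm6a 0.44, Kmt2a 0.36, Kmt2b 0.35, Kmt2d 0.33, Setd1b 0.16 for the interaction, Kdm6b -0.25, Kmt2d -0.23 between untreated lines, and Kmt2a 0.017, Kmt2b 0.046, Kmt2d 0.0996, Setd1a 0.15 between treated lines. With 1 library left out, log2 fold changes that crossed 0 ranged over Ezh2 -0.084 to 0.21, Kmt2a -0.11 to 0.066, Setd1a -0.10 to 0.097 in PRC1CKO after treatment, Kdm6a -0.12 to 0.13, Kmt2a -0.24 to 0.054, Kmt2b -0.25 to 0.011, Kmt2c -0.070 to 0.27, Setd1a -0.054 to 0.16 for the interaction, Kdm6b -0.077 to 0.26, Kmt2a -0.28 to 0.014, Kmt2d -0.016 to 0.14, Setd1a -0.055 to 0.14, Setd1b -0.066 to 0.13 in PRC1CPM after treatment, Kdm6b -0.083 to 0.17, Kmt2a -0.13 to 0.046, Kmt2b -0.11 to 0.13, Kmt2d -0.010 to 0.13, Setd1a -0.17 to 0.035 between untreated lines, Kmt2d -0.15 to 0.013, Setd1a -0.12 to 0.081 between treated lines.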
